A study of Canis lupus familiaris with 34 samples.

Results

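Cultured lines from primary canine osteosarcoma were set against snap-frozen primary osteosarcoma tissue. Samples were chosen by their source label, which gave 25 line arrays and 6 tissue arrays of 34 arrays in all. The other 3 arrays were lines from metastases and served only to estimate the spread. Osteosarcoma is a malignant tumour of bone-forming cells and a common bone cancer of large dogs. A piece of tumour tissue holds tumour cells together with macrophages, bone-resorbing osteoclasts, blood vessels and matrix. A culture keeps the cells that divide on plastic, in medium rich in glucose, amino acids and serum. A lower signal in the lines therefore cannot be told apart, in bulk RNA, between fewer cells of a type and less RNA per cell.

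The primary lines were labelled with ages at diagnosis of 2 to 11.19 (median 7.8, 23 arrays with a label, unit not stated). Of the line arrays 11 had a female, 13 a male and 1 no sex label. The 6 tissues had ages of 2.67 to 11.91 (median 6.41), and 5 were female and 1 male. Both groups held mostly large breeds, and the protocol label gives primary tumour cells or cryopreserved cultured cells as the source, with no passage number. Most dogs gave 1 array, the dog labelled 73 gave 1 line array and tissue 6, and the dog labelled 71 gave 2 line arrays and tissue 5. The line arrays of dog 71, here line 19 and line 22, were averaged, which left 24 line values. Sample titles carried 3 prefixes, here called title prefix 1, 2 and 3. Prefix 1 held 4 line arrays, prefix 2 held 19, and prefix 3 held 2 (line 22 and line 23) and all 6 tissues. The labels do not say whether a prefix marks a laboratory or a processing batch.

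Values with no prefix named are over all arrays, and those within title prefix 3 use the same 6 tissues and are not independent. A value over all arrays need not hold within prefix 3. Of 172 called genes on the list of named genes, 62 kept their call with prefix as a covariate, 95 lost it and 15 changed sign. All tissues carry prefix 3, so the differences in that fit equal those within prefix 3 and rest on its 2 line arrays. Between line 22 of prefix 3 and line 19 of prefix 2, from the same dog, 2194 genes (28.0%) stood at least 2-fold apart (r = 0.919 across genes). Line pairs of different dogs within prefix 2 had a median of 2115 genes and r = 0.904 over 171 pairs. Lines of prefix 2 and prefix 3 had a median r of 0.842 over 38 pairs, and both prefix 3 lines had r = 0.902. Tissue 3 and tissue 6 were the closest tissue pair (r = 0.925, lowest pair 0.835) and have the same breed and sex label and ages of 2.7 and 2.67. Nothing in the labels says that they are 1 dog, and they were kept apart. The median intensity of an array, on the linear scale and not in log2 units, was 8.31 ± 0.121 in lines and 8.53 ± 0.149 in tissues (SD, n = 24 and 6; two-sided exact permutation p = 0.000999). The actin signal at the 3′ end exceeded that at the 5′ end by 1.42 ± 0.956 log2 units in lines and 2.59 ± 1.15 in tissues (exact permutation p = 0.0149). With the other actin 5′ probe set the excess was 8.24 ± 0.843 in lines and 9.70 ± 0.453 in tissues (exact permutation p = 0.000392). The GAPDH excess was 3.09 in lines and 3.20 in tissues (exact permutation p = 0.404). The part of array signal and RNA integrity in the results was not tested.

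Macrophage markers separated the groups, and bone markers did so in part. Of the 14 macrophage markers 11 were measured, all 11 were lower in lines, and 8 of them (CD163, CSF1R, C1QA, C1QB, C1QC, MRC1, AIF1 and TYROBP) stayed at or below log2 5 in every line. Their summed intensity was 56.4 to 725 in lines (median 64.0) and 4578 to 20317 in tissues (median 10650). Tissue 6 had the lowest and tissue 5 the highest sum, and no line reached the lowest tissue. As 10 of the 11 passed the filter on dim probe sets only through the tissues, they had to differ. Of 10 T and B cell markers 1 was measured (JCHAIN) and was not called (-0.39). Of the osteoblast markers 6 were measured and 3 were lower in lines, and bone sialoprotein (IBSP) was at or below log2 5 in every line. The osteoblast sum was 3827 to 17837 in lines and 19472 to 53947 in tissues, and 5 of the 6 measured osteoblast markers were dim in the median line. Line 4 stood apart with an endothelial marker sum of 34315, against a line median of 137 and a tissue range of 1711 to 30200.

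All levels are log2 of the intensity deposited by the authors, and differences are line minus tissue on the log2 scale. A gene was called where limma's adjusted p was under 0.05 and the change at least 2-fold, and a level of log2 5 or less is called dim. Over all arrays 1148 of 7849 genes were called (14.6%), 437 higher in lines (5.57%) and 711 lower (9.06%). With each array centred on its median the split was 597 higher and 605 lower, and the median over all genes was 0.08, against -0.05 as deposited. Within title prefix 3, 251 genes were called (3.2%), 80 higher (1.02%) and 171 lower (2.18%), and 1630 had an unadjusted p under 0.05. Both fits called 140 genes in the same direction, 23 higher and 117 lower. Without line 4 the count over all arrays was 1207 genes, 481 higher and 726 lower.

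**Figure D1:**
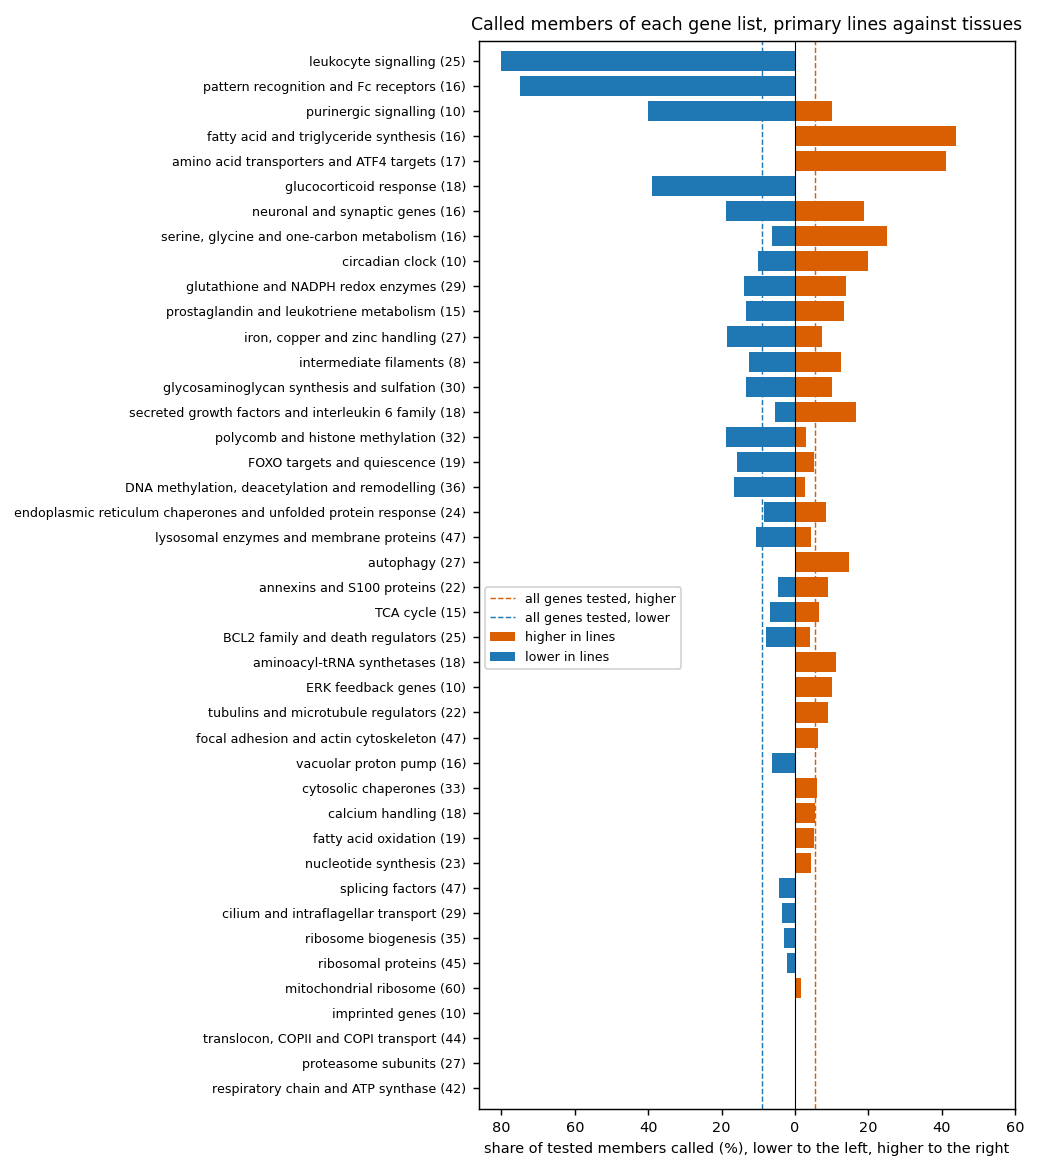
Share of the tested members of each gene list (number tested in brackets) called higher in lines (orange, to the right) or lower in lines (blue, to the left), in percent, with dashed lines at the 5.57% and 9.06% of all tested genes. Leukocyte signalling and pattern receptors lie far to the left, fatty acid synthesis and amino acid genes to the right, and the respiratory chain, proteasome and transport coats have no called member.

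The genes with the largest called differences in both fits give the outline. LYZ, MMP9 and IBSP passed the filter only through the tissues, so they had to be lower in lines, and their values are a description. Other lower genes with fewer than 3 primary lines over log2 5 were not carried past the filter by the primary lines alone. Their differences and p-values are also a description. LYZ, the lysozyme of myeloid cells, stood at or below 5.14 in every line (median 2.12) and at 10.80 to 13.25 in tissues (median 12.37). Every line lay below every tissue, and the fitted difference was -9.89 (-9.82 within prefix 3). The gelatinase MMP9, made by osteoclasts and neutrophils, stood at 1.91 to 7.71 in lines (median 2.36), against 10.04 to 13.79 in tissues (median 12.56), with line 5 alone above log2 5. IBSP was dim in all 24 lines (2.35 to 4.84) and at 6.67 to 14.50 in tissues, which makes it at least 75.2-fold lower in lines. Among tissues it was lowest in tissue 2 and highest in tissue 6.

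Among genes higher in lines, CDH6, a cadherin of mesenchymal and renal cells, stood at 2.58 to 11.12 in lines (median 7.18) and was dim in all tissues (at most 4.05). The prefix 3 lines were near the top at 10.47 and 10.49, and CDH6 was at least 3.28-fold higher in lines. Genes dim in every tissue, such as CDH6, passed the filter on dim probe sets only through lines. They had to be higher in some lines, so their values and calls are a description. The axon guidance factor SEMA3C was dim in all tissues and above its highest tissue in 22 of 24 lines. LOX, which crosslinks collagen, stood at 6.40 to 12.84 in lines (median 10.93), against 5.57 to 8.91 in tissues (median 6.68), and 20 lines exceeded every tissue. FHL2, a LIM-domain coactivator tied to the actin cytoskeleton, was tight in lines at 11.64 to 12.89 and lower in tissues at 7.41 to 10.06, without overlap (difference 3.05, SE 0.24, adjusted p = 4.58e-12).

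Both receptor tyrosine kinases in this set, AXL and MET, were higher in lines. AXL, the receptor for GAS6, stood at 3.61 to 9.09 in lines (median 6.19), against 3.23 to 5.43 in tissues (median 4.02), and differed by 2.08 (SE 0.55, adjusted p = 0.0063) and by 3.16 within prefix 3. MET, the receptor for hepatocyte growth factor, was dim in all tissues (2.85 to 4.31) and above log2 5 in 11 of 24 lines. It was at least 1.12-fold higher in lines. PRKCI, an atypical protein kinase C of cell polarity, differed by 1.81 (SE 0.39) and by 3.12 (SE 0.63) within prefix 3. BCAR3, an adaptor of p130Cas signalling, and AK4, a mitochondrial adenylate kinase, exceeded every tissue in 22 and 23 of 24 lines. The neuronal transcripts TUBB3 (a beta-tubulin), KIF1A (a kinesin of axonal transport), STXBP6 (a SNARE regulator) and SULT4A1 (a brain sulfotransferase) were dim in all 6 tissues and reached 8.94, 8.90, 8.55 and 6.73 in their highest lines. The TUBB3 call was lost when any 1 tissue was left out, that of SULT4A1 without tissue 1, 2, 3 or 4, and that of KIF1A without tissue 1.

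CCND2, a D-type cyclin, and F3, the tissue factor that starts coagulation, were 4.16 and 4.02 higher in lines over all arrays (adjusted p = 1.53e-06 and 1.07e-05). CCND2 stood at 7.39 to 12.13 in lines (median 10.45), against 3.10 to 8.61 in tissues (median 6.93). Within prefix 3 both kept differences of that size, 4.18 and 4.48, with adjusted p = 0.183 and 0.1. The prefix 3 lines stood at 9.96 and 10.82 for CCND2 and at 12.30 and 11.11 for F3. The SD among tissues was 2.45 for CCND2 and 1.95 for F3. Why neither gene was called within prefix 3 was not tested.

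Most measured leukocyte signalling genes were lower in lines. Leukocytes relay signals through integrins, kinases and adaptors, many of which other cells lack. Of 58 listed genes 25 passed the filter, and 15 of the 25 passed only through the tissues, so these had to differ and the counts are a description. Of the 25, 20 were lower in lines (80%, against 9.06% of all genes) and 0 higher. Within prefix 3, 8 of the 25 were called lower, against 2.18% of all genes. RAC2, a small GTPase of blood cells, was dim in every line (1.98 to 3.76) and at 6.48 to 11.15 in tissues (median 9.19). It was at least 17.2-fold lower in lines. CYBB, the catalytic subunit of the phagocyte NADPH oxidase, stood at 2.56 to 4.61 in lines and 6.33 to 11.39 in tissues, at least 21.9-fold lower. CD48, an adhesion protein of leukocytes, was at least 7.85-fold lower and TYROBP, the signalling adaptor of myeloid receptors, at least 8.14-fold lower.

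LAPTM5, a lysosomal membrane protein of blood cells, ran from 1.67 to 13.74 in lines (median 2.08), against 9.89 to 12.54 in tissues (median 10.94). Line 4 carried the 13.74, above every tissue, and the next line reached 4.79. PECAM1, an adhesion molecule of endothelium and platelets, had its highest line value in the same line 4 (13.88, next 5.85), against 9.96 to 14.06 in tissues. LCP1 and ARHGDIB, also known from leukocytes, were not dim in all lines. The bundling protein LCP1 stood at 2.16 to 10.64 in lines (median 7.74) and 9.17 to 11.74 in tissues, with 18 of 24 lines above log2 5 (difference -2.99, adjusted p = 0.0294, lost without tissue 2, 3 or 5). ARHGDIB, an inhibitor of small GTPases, stood at 2.41 to 8.71 in lines (median 4.83) and 7.98 to 10.62 in tissues, a difference of -4.54 (SE 0.67, adjusted p = 5.21e-06).

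Pattern recognition and Fc receptors, which bind microbes, dead cells and antibodies, followed the same course. Of 45 listed genes 16 passed the filter, 10 of them only through the tissues, and 12 were lower in lines (75%, against 9.06% of all genes). CD163, the haemoglobin scavenger receptor of macrophages, was dim in all lines (1.78 to 2.58) and at 6.15 to 10.31 in tissues, at least 13.8-fold lower in lines. FCGR1A, the high-affinity IgG receptor, was at least 8.39-fold lower. CLEC12A, an inhibitory lectin receptor, was at least 5.99-fold lower, and STAB1, a scavenger receptor of macrophages and sinus endothelium, at least 3.19-fold lower. TLR4, the lipopolysaccharide receptor, stood at 1.10 to 2.62 in lines and 3.08 to 7.74 in tissues, with tissue 6 the lowest. Tissue 6 was also the lowest tissue for CD163, FCGR1A, CLEC12A and STAB1, as it was for the macrophage marker sum, which itself includes CD163.

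Class II genes, which present peptides to T cells, were lower in lines. DLA-DRA, DLA-DQA1, HLA-DRB1 and the invariant chain CD74 differed by -8.94, -8.65, -8.13 and -7.53, and DLA-DQB1, dim in every line, was at least 33.1-fold lower. DLA-DQA1 exceeded log2 5 in 1 line and DLA-DRA and HLA-DRB1 in 2, against all 6 tissues. The filter asks for 3 arrays, so the primary lines alone did not carry these genes or DLA-DQB1 past it. Their values are a description. Class II transcripts were not dim in every line: DLA-DRA reached 8.89 and CD74 9.17 in line 25, and HLA-DRB1 9.17 in line 5. The near-identical class II genes can share probes, so their separate values are uncertain. Immunoproteasome subunits, which replace constitutive ones in immune and interferon-exposed cells, were called lower over all arrays. PSMB8 stood at 2.24 to 8.31 in lines (median 3.61), against 6.17 to 10.07 in tissues (median 6.81), with line 12 the only line above the lowest tissue (difference -3.58, SE 0.61, adjusted p = 4.64e-05, and -4.39 within prefix 3, adjusted p = 0.0488). PSMB9 differed by -2.37 (adjusted p = 0.0241, lost without tissue 4 or 5; -3.39 within prefix 3, adjusted p = 0.107) and PSMB10 by -1.20 (adjusted p = 0.0403, lost without any 1 tissue except tissue 1). PSMB10 was at -0.31 within prefix 3 (adjusted p = 0.767). None of the 27 constitutive and regulatory proteasome subunits tested was called, and their differences ran from -0.63 to 0.41.

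**Figure D2:**
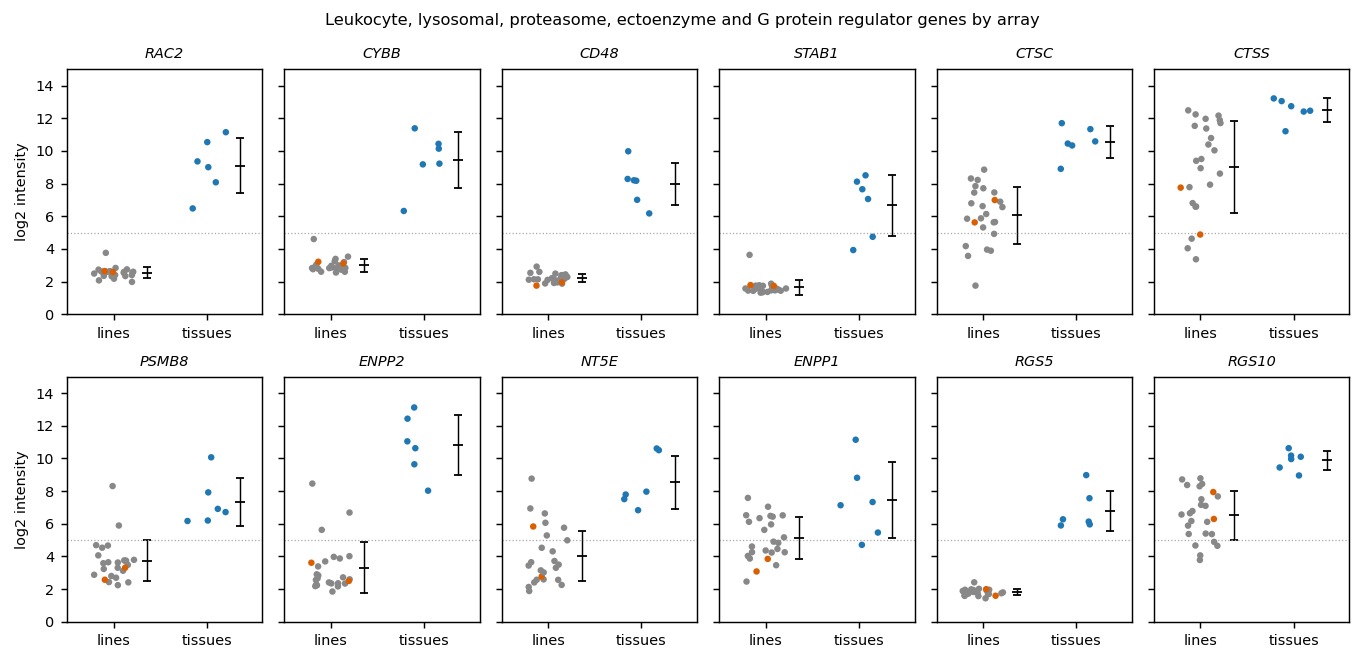
Log2 intensity of 12 genes on each array, lines left and tissues right, with lines of title prefix 3 in orange, other line arrays in grey and tissues in blue. Black marks give mean ± SD (24 line values after averaging the arrays of 1 dog, 6 tissues), and the dotted line marks log2 5. RAC2, CYBB, CD48 and RGS5 are dim in every line, whereas CTSC, CTSS, NT5E and RGS10 spread over several log2 units among the lines.

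Lysosomal genes were called about as often as all genes. Lysosomes hold acid hydrolases and are large in macrophages and osteoclasts. Of 47 tested members 14.9% were called, against 14.6% of all genes, 5 lower and 2 higher, and the median was -0.13, against -0.05 over all genes. The cysteine protease CTSC, which activates granule proteases, stood at 1.76 to 8.86 in lines (median 6.01), against 8.91 to 11.70 in tissues (median 10.52), with no overlap and a difference of -4.50 (SE 0.69, adjusted p = 9.19e-06). CTSS, the protease that trims the invariant chain, ran from 3.37 to 12.49 in lines (median 9.45) and from 11.21 to 13.22 in tissues (median 12.60), so some lines held tissue-like levels and 16 of 24 lay below the lowest tissue. CTSS differed by -3.50 (adjusted p = 0.0213) over all arrays and by -6.20 (adjusted p = 0.00574) within prefix 3, where the lines stood at 7.76 and 4.88. The acid mannosidase MAN2B1 differed by -1.55 (SE 0.42), the thioesterase PPT1 by -1.24 (SE 0.30), and the phospholipase-family protein PLD3 by -1.09 (SE 0.32, lost without tissue 6).

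The higher members were GPNMB, a glycoprotein of melanosomes and lysosomes, and NPC1, the cholesterol exporter, and both turned with the prefix. GPNMB stood at 8.28 to 13.75 in lines (median 11.93), against 7.27 to 11.67 in tissues (median 8.93), a difference of 2.44 (adjusted p = 0.00866). The prefix 3 lines stood at 5.93 and 9.91, and the difference there was -1.38 (adjusted p = 0.569). NPC1 differed by 1.17 over all arrays and by -0.27 within prefix 3. Within prefix 3, 43 of 47 lysosomal genes were lower in lines, 5 were called lower and the median was -0.70. Of all 7849 genes 3564 were lower there, 2.18% were called lower and the median was 0.10. CTSD, the main aspartic protease of lysosomes, was 0.65 higher over all arrays (adjusted p = 0.297) and differed by -1.52 within prefix 3 (adjusted p = 0.0463). Of 16 subunits of the vacuolar proton pump, ATP6V1A alone was called (-1.12, adjusted p = 0.013, lost without tissue 6).

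Enzymes that act on nucleotides outside the cell were lower in lines, and an adenosine receptor was higher. ATP released by cells is cut to AMP and then to adenosine at the cell surface, and bone uses related enzymes to set phosphate and pyrophosphate. ENPP2, or autotaxin, which makes lysophosphatidic acid, stood at 1.85 to 8.46 in lines (median 2.64), against 8.03 to 13.12 in tissues (median 10.84), with line 12 alone above the lowest tissue. Its difference was -7.50 (SE 0.70, adjusted p = 4.31e-10) and -7.76 within prefix 3. NT5E, or CD73, which forms adenosine, ran from 1.88 to 6.94 in lines (median 3.57) and from 6.83 to 10.61 in tissues (median 7.88), a difference of -4.52 (SE 0.67, adjusted p = 5.16e-06). Both line arrays of dog 71 differed in NT5E by -6.00, prefix 3 minus prefix 2. ALPL, the tissue-nonspecific alkaline phosphatase of mineralising cells, differed by -6.69 (SE 0.86), and line 25 kept 9.90. ENPP1, which makes pyrophosphate, differed by -2.30 (adjusted p = 0.0118, lost without tissue 1), and only 11 of 24 lines lay below its lowest tissue. ADORA2B, the low-affinity adenosine receptor, stood at 4.67 to 7.55 in lines (median 6.37), against 4.53 to 5.71 in tissues (median 4.93). It was 1.23 higher (adjusted p = 0.0312, lost without tissue 1, 4, 5 or 6) and 2.41 higher within prefix 3 (adjusted p = 0.0193). Together 4 of 10 tested purinergic genes were lower in lines (40%, against 9.06% of all genes) and 1 was higher (10%, against 5.57%).

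Regulators of G protein signalling, which switch off heterotrimeric G proteins, were lower in 5 of 8 tested genes (62.5%, against 9.06% of all genes). Of 126 families that share a symbol stem and have 8 or more tested genes, this one had the largest share called. Its count is therefore a description. Of the 8, 2 passed the filter only through the tissues and had to be lower. RGS5, a pericyte transcript, was dim in all 24 lines (1.44 to 2.42) and at 5.90 to 8.98 in tissues, at least 3.49-fold lower in lines. RGS10, abundant in macrophages and microglia, ran from 3.78 to 8.78 in lines (median 6.54) and from 8.96 to 10.63 in tissues, without overlap (difference -3.37, SE 0.64, adjusted p = 0.000192). RGS1 differed by -5.90, with the highest line, line 7, at 10.34, and RGS22 was at -1.39 (lost without tissue 6) and -3.26 within prefix 3. RGS19 differed by -1.48 over all arrays and by 0.60 within prefix 3, where both lines stood at 6.06 and 5.93.

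Of 10 matrix metalloproteinases, which cut extracellular matrix, 6 were lower (60%, against 9.06% of all genes) and 0 higher. Among the 126 families this one had the next largest share called, so its count is also a description. Only through the tissues did 2 of the 10 pass the filter. MMP13, the collagenase of hypertrophic cartilage and bone, stood at 2.39 to 9.80 in lines (median 3.51), against 10.40 to 13.96 in tissues (median 13.37), and the prefix 3 lines stood above the line median at 7.66 and 7.84 (difference -7.79, SE 1.05, adjusted p = 1.04e-06). Before averaging, line 19 stood at 11.48, above the lowest tissue, and line 22 minus line 19 of that dog was -3.82. The MMP13 call was lost with prefix as a covariate. The membrane-type MMP16 differed by -4.93 (SE 0.57, adjusted p = 6.01e-08) and the stromal MMP11 by -1.63 (lost without tissue 1). MMP1 ran from 2.00 to 9.92 in lines and from 2.81 to 12.08 in tissues, and MMP3 from 1.69 to 11.98 in lines and from 2.59 to 11.73 in tissues, so each had low and high samples in both groups. Their calls (-4.03 and -4.06) were lost without tissue 1, 3 or 6, and for MMP3 also without tissue 5. Without tissue 1 the family had 3 lower genes.

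Transcripts for amino acid uptake and for the amino acid response were higher in lines. The transcription factor ATF4 is translated when amino acids are scarce or proteins misfold, and it turns on transporters and synthesis enzymes. Of 17 tested genes of this list 7 were higher (41.2%, against 5.57% of all genes) and 0 lower. The median was 1.08 (0.67 within prefix 3). CHAC1, which degrades glutathione and is a standard ATF4 readout, stood at 4.75 to 8.59 in lines (median 7.16) and was dim in all tissues (2.73 to 4.35). Every line exceeded every tissue, and CHAC1 was at least 3.77-fold higher in lines. It passed the filter only through lines, so its values are a description. It was also called within prefix 3, and line 22 exceeded line 19 of the same dog by 0.01 log2 units. Asparagine synthetase (ASNS) stood at 10.71 or more in lines (median 12.15), against 7.72 to 10.58 in tissues (median 9.13), without overlap (difference 3.03, SE 0.32, adjusted p = 7.06e-09). Before averaging, line 22 stood at 10.24, which is 0.10 above the tissue of the same dog.

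The glutamine transporter SLC1A5 stood at 8.52 to 11.70 in lines (median 10.40), against 7.85 to 9.90 in tissues (median 8.97), and 20 of 24 lines exceeded every tissue (difference 1.52, SE 0.31, adjusted p = 0.000562). SLC38A1, another glutamine carrier, differed by 1.08 (lost without tissue 2 or 6) and by 1.95 within prefix 3. The stress factor DDIT3, an ATF4 target, differed by 1.37 (SE 0.35) and by 0.65 within prefix 3. The pseudokinase TRIB3, another target, was called but dim in all tissues and in 18 of 24 lines, so no size is given. VLDLR, the very low density lipoprotein receptor, differed by 1.93 (SE 0.47) over all arrays and 0.83 within prefix 3. ATF4 mRNA itself was at 12.36 to 13.25 in lines and 12.51 to 13.02 in tissues, a difference of 0.11 (SE 0.10, adjusted p = 0.455).

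The serine and one-carbon pathway, which builds serine from a glycolytic intermediate and passes its carbon to nucleotides, gave 4 higher and 1 lower of 16 tested genes. These shares were 25% higher and 6.25% lower, against 5.57% and 9.06% of all genes. PSAT1, the aminotransferase of serine synthesis, stood at 11.23 to 13.10 in lines (median 12.75), against 8.97 to 11.57 in tissues (median 10.80), and 23 of 24 lines exceeded every tissue. It differed by 1.97 (SE 0.25, adjusted p = 3.66e-07) and by 2.22 (adjusted p = 0.111) within prefix 3. The mitochondrial folate enzymes MTHFD2 and SHMT2 differed by 1.73 (SE 0.42) and 1.11 (SE 0.25), and the serine phosphatase PSPH by 1.02 (SE 0.28, lost without tissue 1, 2 or 5). AHCY, which hydrolyses S-adenosylhomocysteine, went the other way at -1.49 (lost without tissue 3, 4, 5 or 6) and was at -0.05 within prefix 3. The median of the list was 0.44 over all arrays, 1.23 within prefix 3 and 1.58 within dog 71. Between its line arrays of prefix 3 and prefix 2 the median difference was -0.09. Aminoacyl-tRNA synthetases, which load amino acids onto tRNA, had 2 of 18 higher (11.1%, against 5.57% of all genes). They were CARS1 for cysteine (1.34, SE 0.34) and WARS1 for tryptophan (1.23, SE 0.27).

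**Figure D3:**
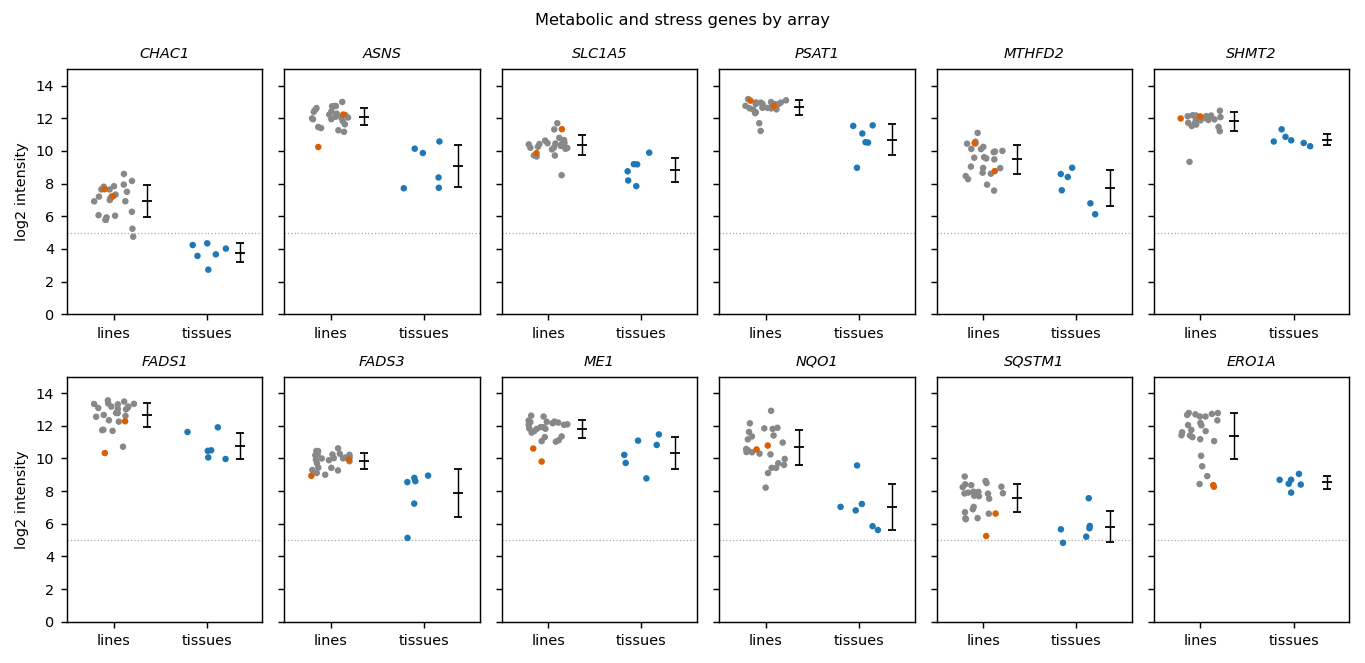
Log2 intensity of 12 metabolic and stress genes on each array, lines left and tissues right, with lines of title prefix 3 in orange, other line arrays in grey and tissues in blue. Black marks give mean ± SD (24 line values, 6 tissues), and the dotted line marks log2 5. CHAC1 does not overlap between groups, and the orange points of ME1, SQSTM1 and ERO1A sit at the level of the tissues.

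Fatty acid synthesis and desaturation genes were higher in lines over all arrays. Of 16 tested members 7 were higher (43.75%, against 5.57% of all genes) and 0 lower, with a median of 0.90. FADS3, a desaturase-family gene, stood at 8.94 to 10.62 in lines (median 9.98), against 5.13 to 8.95 in tissues (median 8.58), and 23 of 24 lines exceeded every tissue (difference 1.98, SE 0.34, adjusted p = 4.52e-05). FADS1, the delta-5 desaturase of polyunsaturated fatty acids, differed by 1.90 (SE 0.32). FADS2, the delta-6 desaturase, was called but dim in all tissues and in 15 of 24 lines, and its call was lost without any 1 tissue except tissue 6. The stearoyl desaturase SCD differed by 1.30 (SE 0.29) and the acyl-CoA synthetase ACSL4, which activates arachidonic acid, by 1.42 (SE 0.35). The elongase ELOVL5 differed by 1.03 (lost without tissue 2, 3 or 5), and malic enzyme ME1, a source of NADPH, by 1.44 (SE 0.30).

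Within prefix 3 the median was 0.76 but the called gene was another, ELOVL6, an elongase of saturated fatty acids. ELOVL6 was dim in all tissues and at 5.96 and 7.38 in the prefix 3 lines. FADS1 was at 0.55 there and ME1 at -0.14. The FADS1 level of dog 71 differed by -2.85, line 22 minus line 19. Without both tissues of the dogs that also gave lines, the list had 3 calls in place of 7. Fatty acid oxidation, the reverse process, had 1 of 19 genes called, DECR1, the dienoyl-CoA reductase (1.80, SE 0.52), and 1 lower gene was added without tissue 1, 2 or 4.

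Redox enzymes moved in both directions, 4 higher (13.8%, against 5.57% of all genes) and 4 lower (13.8%, against 9.06%) of 29 tested. NQO1, a quinone reductase and standard target of the antioxidant factor NFE2L2, stood at 8.21 to 12.92 in lines (median 10.54), against 5.62 to 9.57 in tissues (median 6.93). It differed by 3.66 (SE 0.59, adjusted p = 2e-05), by 3.65 (adjusted p = 0.0731) within prefix 3 and by 4.70 within dog 71. GCLM, a subunit of the first enzyme of glutathione synthesis, differed by 1.40 (SE 0.27), thioredoxin (TXN) by 1.08 (SE 0.17) and transketolase (TKT) by 1.02 (lost without tissue 2, 3, 4 or 6). NFE2L2 mRNA stood at 10.41 to 12.76 in lines and 9.64 to 12.60 in tissues, a difference of 0.49 (adjusted p = 0.219). Among lower genes, GPX7, a peroxidase of the endoplasmic reticulum, stood at 4.42 to 8.32 in lines (median 5.86), against 6.70 to 10.04 in tissues (median 8.62). Its difference was -2.56 (SE 0.45) and -4.25 (adjusted p = 0.0407) within prefix 3. MGST2, a microsomal glutathione transferase that also makes leukotriene C4, was at -3.87 (SE 0.58), and its tissues ran from 4.23 to 11.39. Only line 10 had MGST2 over log2 5, fewer than the 3 arrays of the filter, so its values are a description. Catalase (CAT) was lower than the lowest tissue in 23 of 24 lines (-1.33, SE 0.31, adjusted p = 0.00212).

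HMOX1, which breaks down haem and is also an NFE2L2 target, was lower in lines at -1.95 (adjusted p = 0.0303, lost without tissue 2, 3 or 5), and line 8 reached 8.26. Macrophages recycle haem iron. Of 27 genes of iron, copper and zinc handling 5 were lower in lines (18.5%, against 9.06% of all genes), CD163 and HMOX1 among them. Another 2 were higher (7.41%, against 5.57%). The lower ones numbered 3 without tissue 5, and the higher ones 4 without tissue 4. The iron exporter SLC40A1 stood at 3.69 to 9.33 in lines (median 5.63), against 7.38 to 10.30 in tissues (median 8.52), a difference of -3.11 (SE 0.56, adjusted p = 0.000102). SLC11A1, the metal transporter of phagosomes, differed by -2.21 (SE 0.47). The transferrin receptor TFRC, which takes iron up, stood at 2.60 to 8.37 in lines and was dim in all tissues, and was not called (adjusted p = 0.283). The macrophage marker sum was also lower in lines than in tissues, and its part in these differences was not tested. Among tissues that sum was highest in tissue 5, where SLC40A1 was lowest. It was lowest in tissue 6, where HMOX1 and SLC11A1 were lowest.

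Genes that glucocorticoids induce were lower in lines. Glucocorticoid hormones act through the receptor NR3C1 and raise a known set of stress and metabolic genes in most tissues. Of 18 tested members 7 were lower (38.9%, against 9.06% of all genes) and 0 higher, with a median of -1.40. ANGPTL4, an inhibitor of lipoprotein lipase, stood at 2.93 to 10.19 in lines (median 4.81), against 8.47 to 10.42 in tissues (median 8.70), and 23 of 24 lines lay below the lowest tissue (difference -3.72, SE 0.72, adjusted p = 0.000264). Within prefix 3 it was -1.69 (adjusted p = 0.353). The clock gene PER1 stood at 4.11 to 7.05 in lines (median 5.01), against 5.56 to 9.13 in tissues (median 7.64), a difference of -2.31 (SE 0.40, adjusted p = 6.29e-05) and of -0.78 within prefix 3 (adjusted p = 0.624). The kinase SGK1 stood at 3.85 to 8.93 in lines (median 6.41), against 7.99 to 9.91 in tissues (median 8.63), and also differed by -2.31 (SE 0.54), and by -0.91 within prefix 3 (adjusted p = 0.465).

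GLUL, which makes glutamine from glutamate, stood at 4.24 to 7.81 in lines (median 6.15), against 7.28 to 9.05 in tissues (median 8.21). It differed by -1.89 (SE 0.41, adjusted p = 0.000899) and by -2.61 (adjusted p = 0.0354) within prefix 3. TSC22D3, the leucine zipper known as GILZ, differed by -1.37 (lost without tissue 3 or 5). The zinc finger gene ZBTB16 was at -1.83 (lost without tissue 2, 3, 4 or 5), and the NF-kappaB inhibitor NFKBIA at -1.43 (lost without tissue 1 or 5). FKBP5, a chaperone of the receptor, was at -1.78 (adjusted p = 0.102) and at 0.27 within prefix 3. PDK4, which restrains pyruvate entry into mitochondria, ran from 1.92 to 12.64 in lines and from 3.16 to 9.81 in tissues (difference -2.85, adjusted p = 0.0669).

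The receptor gene NR3C1 stood at 6.32 to 9.94 in lines and 6.83 to 7.68 in tissues, with a difference of 0.98 (adjusted p = 0.0802). Line 20 was the highest line for ANGPTL4 (10.19), TSC22D3 (13.17), ZBTB16 (9.20), PDK4 (12.64) and, after averaging, FKBP5 (10.53). Before averaging, line 19 stood higher for FKBP5 at 10.95. Without tissue 5 the list had 4 calls instead of 7, and with title prefix as a covariate it had 1, GLUL. Within prefix 3 the median was -0.91, and TXNIP, a regulator of glucose uptake that glucocorticoids also raise, was called beside GLUL (-2.62, adjusted p = 0.0377, against -0.64 over all arrays).

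**Figure D4:**
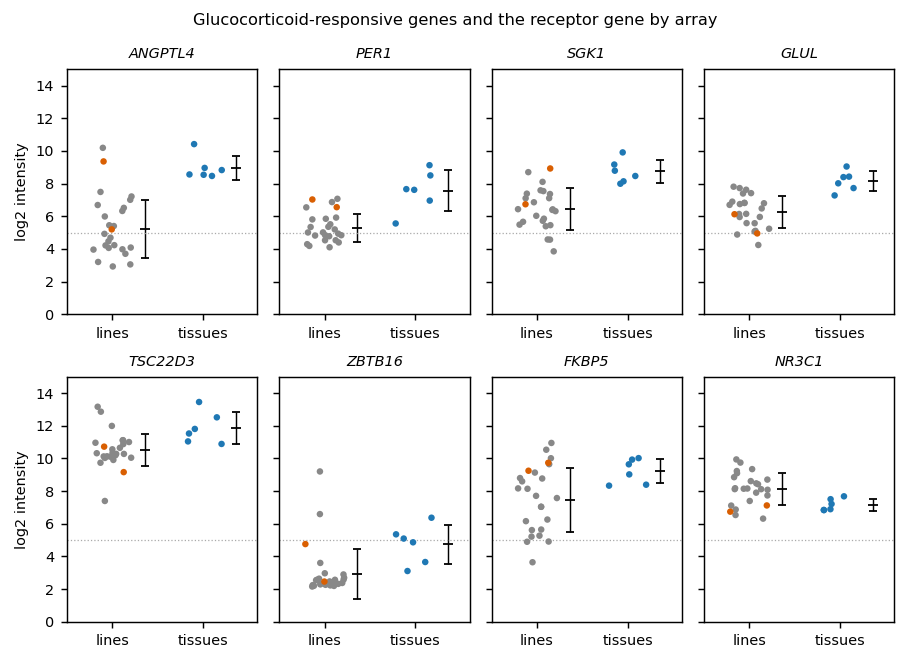
Log2 intensity of 7 glucocorticoid-responsive genes and of the receptor gene NR3C1 on each array, lines left and tissues right, with lines of title prefix 3 in orange, other line arrays in grey and tissues in blue. Black marks give mean ± SD (24 line values, 6 tissues). PER1, SGK1 and GLUL have most lines below the tissues, and 1 line stands alone at the top for ZBTB16.

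Secreted growth factors went in both directions, 3 higher (16.7%, against 5.57% of all genes) and 1 lower (5.56%, against 9.06%) of 18 tested. FGF5, a fibroblast growth factor known from the hair cycle, stood at 1.77 to 8.65 in lines (median 5.69) and was dim in all tissues (1.74 to 2.78), and 23 of 24 lines exceeded every tissue. It was at least 1.52-fold higher in lines, and both prefix 3 lines were at 6.28 and 7.40. FGF5 passed the filter only through lines, so its values are a description. FGF2, the basic fibroblast growth factor, differed by 3.41 (SE 0.64, adjusted p = 0.000178) over all arrays and by 0.28 within prefix 3. Follistatin (FST), which binds activin, differed by 3.42 (SE 0.86) and by 2.21 within prefix 3, and by -1.06 within dog 71. PDGFD, a ligand of the PDGF beta receptor, stood at 3.09 to 11.13 in lines (median 5.06), against 9.44 to 11.52 in tissues (median 10.49), a difference of -4.59 (SE 0.92, adjusted p = 0.000403).

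Some membrane and cytoskeletal scaffolds were higher in lines over all arrays. Caveolae are small pits of the plasma membrane that buffer stretch, and 3 of 7 tested genes were higher (42.9%, against 5.57% of all genes). The caveolae median was 1.06, and 1.19 with 0 calls within prefix 3. CAV2 stood at 10.49 to 13.43 in lines (median 11.68), against 8.13 to 10.92 in tissues (median 9.52), a difference of 1.99 (SE 0.35, adjusted p = 6.29e-05). CAV1, the main caveolin, differed by 1.25 (lost without tissue 6), and PACSIN3, a membrane-bending protein, by 1.06 (lost without tissue 4) and by -0.24 within prefix 3. Of 47 focal adhesion and actin genes 38 had a positive difference, against 3662 of all 7849 genes. Called were 3 higher (6.38%, against 5.57% of all genes) and 0 lower, with 0 calls within prefix 3. The higher ones numbered 9 without line 4 and 5 without tissue 1 or 2. Filamin C (FLNC), an actin crosslinker, stood at 6.86 to 10.64 in lines (median 9.86), against 4.66 to 8.47 in tissues (median 6.62), and differed by 2.83 (SE 0.46, adjusted p = 2.03e-05) and by 2.65 within prefix 3. Cofilin 2 (CFL2) did not overlap between groups at 11.85 to 13.15 in lines and 11.35 to 11.80 in tissues (difference 1.11, SE 0.15, adjusted p = 6.99e-07). The mechanosensitive zyxin (ZYX) differed by 1.94 (adjusted p = 0.0248, lost without tissue 1, 3, 5 or 6).

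The giant scaffolds AHNAK and AHNAK2 differed by 2.73 (SE 0.47) and 3.32 (SE 0.83), and within prefix 3 by 1.67 and 0.67. Plectin (PLEC), which links intermediate filaments to adhesions, stood at 6.65 to 10.90 in lines (median 8.61), against 3.72 to 8.11 in tissues (median 6.72), and differed by 2.44 (SE 0.52) and 2.99 within prefix 3. The microtubule protein MAP1B differed by 1.77 (SE 0.45). CRYAB, a small heat shock protein that protects filaments, ran from 6.19 to 12.98 in lines (median 11.55) and from 3.59 to 10.09 in tissues (median 7.76), a difference of 3.53 (SE 0.87, adjusted p = 0.00344). The HSP90 partner CHORDC1 was the other called chaperone of 33 (1.04, lost without tissue 5), and HSF1, the factor that drives heat shock genes, differed by 0.04 (adjusted p = 0.934).

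Death regulators gave 3 calls in 25 tested genes (12%, against 14.6% of all genes). CASP4, the inflammatory caspase that senses lipopolysaccharide, stood at 1.51 to 5.26 in lines (median 1.92), against 3.13 to 8.45 in tissues (median 4.83), a difference of -3.14 (SE 0.44, adjusted p = 2.2e-06). Only line 6 had CASP4 over log2 5, fewer than the 3 arrays of the filter, so these values are a description. The survival gene BCL2 was called but dim in all lines and in 3 of 6 tissues, and its call was lost without tissue 1, 4 or 5. TNFRSF12A, the receptor for TWEAK, differed by 1.25 (lost without tissue 3, 5 or 6) and by 2.73 within prefix 3.

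Neuronal and synaptic genes were called in both directions, 3 each of 16 tested (18.75% each, against 5.57% higher and 9.06% lower of all genes). The neurotrophin receptor NTRK2 stood at 2.36 to 8.72 in lines (median 3.22), against 4.95 to 8.92 in tissues (median 7.79), with line 21 alone above the lowest tissue (difference -3.62, SE 0.55, adjusted p = 8.13e-06). No other line had NTRK2 over log2 5, where the filter asks for 3 arrays, so these values are a description. Reelin (RELN), a secreted guide of migrating neurons, was dim in all lines and ran from 1.89 to 10.46 in tissues, at least 1.69-fold lower in lines. The doublecortin-like kinase DCLK1 differed by 2.52 (SE 0.71), neuronal enolase ENO2 by 2.12 (lost without any 1 tissue except tissue 5), and RTN1 by -1.40 (lost without tissue 1, 4 or 6). Among granulocyte genes, the calcium-binding S100A9 was dim in all lines and, against the tissue mean, at least 2.06-fold lower. Its tissues ran from 2.89 to 8.80, and tissue 4 (2.89) and tissue 6 (3.03) were also dim. LCN2, the iron-binding lipocalin, stood at 2.62 to 12.06 in lines (median 8.62), against 2.81 to 5.91 in tissues (median 3.67), and was 3.69 higher (adjusted p = 0.0309, lost without tissue 2, 3, 4 or 6). The prefix 3 lines had LCN2 at 3.59 and 3.11, inside the tissue range. Myeloperoxidase (MPO) differed by -1.56 (lost without tissue 4).

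Prostaglandin genes had 2 higher (13.3%, against 5.57% of all genes) and 2 lower (13.3%, against 9.06%) of 15. PTGDS, a prostaglandin D synthase, differed by -2.58 (SE 0.55) and -7.26 within dog 71, and thromboxane synthase TBXAS1 by -2.41 (lost without tissue 3). TBXAS1 was again held by line 4 alone, at 11.32, when the next line stood at 2.69. The reductase PTGR1, which inactivates prostaglandins, stood at 10.63 to 14.11 in lines (median 12.97), against 10.26 to 11.80 in tissues (median 11.02), a difference of 1.97 (SE 0.32, adjusted p = 2.19e-05). It was at 0.47 within prefix 3. Sulfated sugar chains of the matrix gave 3 higher (10%, against 5.57% of all genes) and 4 lower (13.3%, against 9.06%) of 30. They gave 1 higher without tissue 3, 5 or 6 and 2 lower without tissue 4. The extracellular sulfatase SULF1 differed by 2.58 (SE 0.74) and the chondroitin-chain enzyme CSGALNACT1, dim in all tissues, was at least 1.62-fold higher (lost without tissue 1, 3, 5 or 6). The hyaluronidase HYAL2 stood at 4.14 to 6.84 in lines (median 4.96), against 6.44 to 8.88 in tissues (median 6.77), at -2.25 (SE 0.31, adjusted p = 1.48e-06), and the hyaluronan synthase HAS2 was at -2.58 (lost without tissue 1, 2 or 4).

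Several called genes lost their difference within title prefix 3. Of 27 autophagy genes, which deliver cargo to lysosomes, 4 were higher over all arrays (14.8%, against 5.57% of all genes) and 0 lower, with 0 calls within prefix 3. SQSTM1, the receptor p62, stood at 5.79 to 8.89 in lines (median 7.85), against 4.83 to 7.57 in tissues (median 5.69), a difference of 1.77 (SE 0.48, adjusted p = 0.00693). The prefix 3 lines stood at 5.25 and 6.63, and the difference there was 0.13 (SE 0.69, adjusted p = 0.938). NBR1, a relative of p62, differed by 1.39 and by 0.47 within prefix 3. Optineurin (OPTN) was at 1.28 and -0.48, and the mitophagy receptor BNIP3L at 1.22 (lost without any 1 tissue except tissue 2) and -0.51.

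ERO1A, the oxidase that drives disulfide formation in the endoplasmic reticulum and responds to hypoxia, had its prefix 3 lines apart from the others. ERO1A stood at 8.37 to 12.79 in lines (median 11.71), against 7.91 to 9.05 in tissues (median 8.57), a difference of 2.82 (SE 0.56, adjusted p = 0.000369), with 21 of 24 lines above every tissue. The prefix 3 lines stood at 8.27 and 8.37, inside the tissue range, and ERO1A of dog 71 differed by -3.15, line 22 minus line 19. Other endoplasmic reticulum genes were called as well, DNAJB9 at 1.23 (-0.74 within prefix 3), the thioredoxin-family protein ERP29 at -1.29 (SE 0.22; -0.95 within prefix 3) and the collagen isomerase FKBP14 at -1.72 (lost without tissue 6; -1.77 within prefix 3).

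SF3B3, a subunit of the U2 spliceosome, was lower over all arrays. It stood at 2.36 to 9.32 in lines (median 3.98), against 8.15 to 10.02 in tissues (median 8.67), and 23 of 24 lines lay below the lowest tissue (difference -4.40, SE 0.67, adjusted p = 8.84e-06). The line above was line 23 of prefix 3, and line 22 stood at 8.93, so the prefix 3 difference was 0.26 (adjusted p = 0.8). The lamin LMNB1, a protein of the nuclear envelope, did likewise, with 2.18 to 9.08 in lines (median 4.31), against 6.51 to 8.98 in tissues (median 8.26). It differed by -3.21 (SE 0.74) over all arrays and by 1.33 within prefix 3. For these genes line and prefix cannot be told apart over all arrays.

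**Figure D5:**
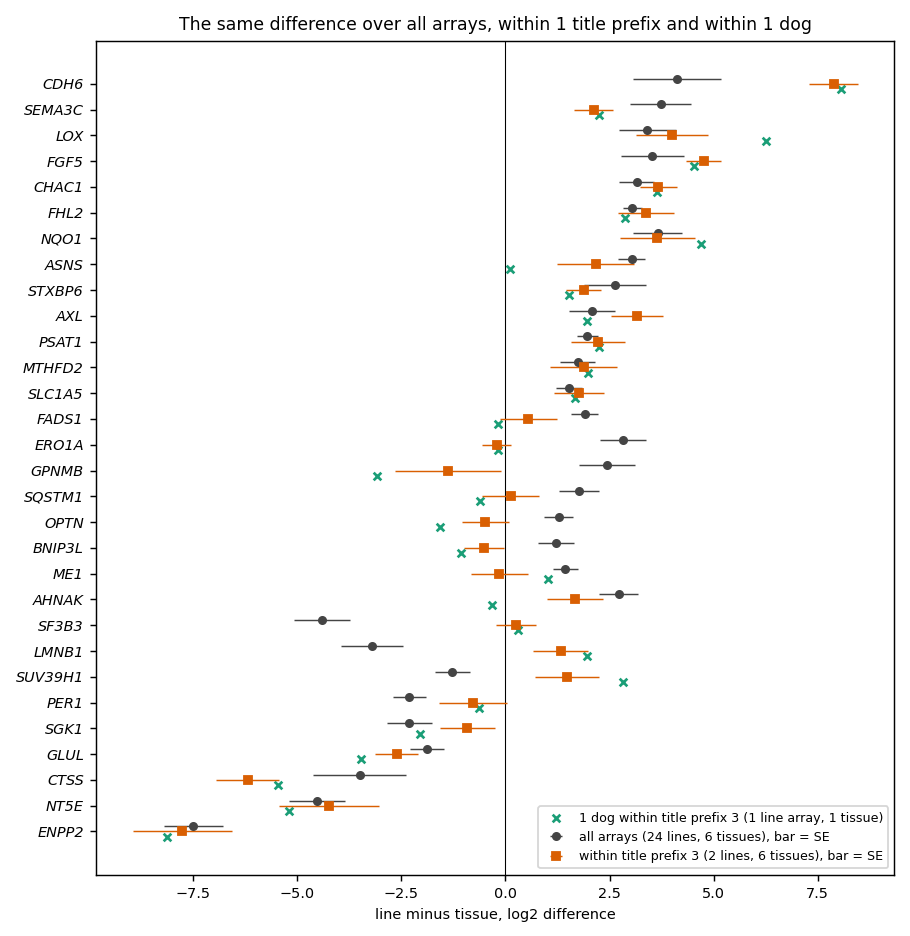
Line minus tissue difference in log2 units for 30 genes, over all arrays (dark circles, SE bars), within title prefix 3 (orange squares, SE bars) and within 1 dog of that prefix (green crosses, no error). CDH6, SEMA3C, FGF5, CHAC1 and STXBP6 are dim in all tissues, so their plotted sizes are fitted values and not measured ones. CDH6, CHAC1, FHL2, NQO1, NT5E and ENPP2 keep their side in each, whereas ERO1A, GPNMB, SF3B3, LMNB1 and SUV39H1 do not.

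Chromatin regulators, like all genes tested, were more often called lower than higher over all arrays. Of 32 polycomb and histone methylation genes 6 were lower (18.75%, against 9.06% of all genes) and 1 higher (3.125%, against 5.57%). Of 36 genes of DNA methylation, deacetylation and remodelling 6 were lower (16.7%) and 1 higher (2.78%). Polycomb and its opposing demethylases set which developmental genes stay silent. The polycomb cofactor JARID2 stood at 4.94 to 8.47 in lines (median 7.04), against 8.06 to 10.16 in tissues (median 9.04), a difference of -2.19 (SE 0.37, adjusted p = 4.45e-05) and -1.46 within prefix 3. KDM6A, which removes the polycomb mark, differed by -2.44 (SE 0.52) and the remodeller CHD7 by -2.45 (SE 0.60), against -1.70 and -0.63 within prefix 3. SMARCA1, a second remodeller, was at -2.44 and lost its call without any 1 tissue. The tubulin deacetylase HDAC6 was at -1.34 (SE 0.28). The heterochromatin methyltransferase SUV39H1 was at -1.27 (lost without tissue 3, 4 or 6) and 1.49 within prefix 3, and HDAC8 at -1.24 (lost without tissue 3 or 6) and 0.24. NSD2, a histone H3 methyltransferase, was 1.42 higher, but its call fell without any 1 tissue except tissue 1, and its 3 other probe sets ranged from -0.48 to 0.23. Without tissue 6 the second list had 3 lower genes. Within prefix 3 the medians of both lists were -0.12 and 0.17, against 0.10 for all genes. There 0 genes of the polycomb list were called, and the second list had 2 higher and 0 lower, against 1.02% and 2.18% of all genes. In the second list 22 of 36 were positive, near the share over all genes (4285 of 7849).

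Clock and quiescence genes were also divided over all arrays. Of 10 clock genes 2 were higher (20%, against 5.57% of all genes) and 1 lower (10%, against 9.06%). Of 19 FOXO and quiescence genes 1 was higher (5.26%) and 3 lower (15.8%). Within prefix 3 that second list had 0 higher and 3 lower, with 16 of 19 negative and a median of -0.90. Of all 7849 genes 3564 were negative there, 2.18% were called lower and the median was 0.10. ARNTL2, a partner of CLOCK, stood at 5.06 to 10.43 in lines (median 8.53), against 3.01 to 9.26 in tissues (median 4.60), a difference of 2.90 (SE 0.67, adjusted p = 0.00177) and 0.77 within prefix 3. The repressor BHLHE41 was at 1.35 (lost without tissue 6) and -0.06. SESN1, a stress sensor induced by p53 and FOXO factors, differed by -2.01 (SE 0.41). SESN3, dim in all lines after averaging (line 19 alone stood at 5.14) and in 4 of 6 tissues, lost its call without tissue 2 or 4. SELENOP, the selenium carrier protein, was dim in all lines (2.12 to 3.70) and at 3.11 to 7.69 in tissues, at least 1.23-fold lower in lines. MXI1, an antagonist of MYC that hypoxia raises, was at 1.44 (SE 0.27) and 0.07 within prefix 3. The calcium-release channel ITPR2 was at 2.07 (SE 0.48) and 0.33.

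Housekeeping machines for energy, protein traffic and protein turnover had few or no called genes over all arrays. Of 42 respiratory chain and ATP synthase genes 0 were called, with differences of -0.69 to 0.51 and medians of -0.11 over all arrays and 0.00 within prefix 3. The translocon and the COPI and COPII coats also gave 0 calls in 44 genes (-0.78 to 0.61). Ribosomal proteins gave 1 call in 45, RPS4X (-1.54, SE 0.42), whose probe set was dim in 22 of 24 lines, and 18 listed members are not among the 45 tested. Mitochondrial ribosomal proteins gave 1 in 60, MRPS35 (1.01, lost without tissue 1, 5 or 6 and without line 4), and without tissue 2 they gave 2 lower genes. The citric acid cycle gave SUCLA2 (1.24, lost without tissue 4) and IDH3B (-1.02, lost without tissue 3 or 5) in 15 genes. Within prefix 3 the proteasome had a median of 0.49 with 26 of 27 genes positive, and mitochondrial ribosomal proteins 0.45 with 48 of 60. All genes had a median of 0.10 there, with 4285 of 7849 positive. In each of these classes the share called over all arrays was under the 14.6% of all genes, and a missed threshold does not show equal levels.

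Nucleotide synthesis and ribosome assembly, both tied to growth, gave 1 call each over all arrays. In 23 nucleotide genes the uridine phosphorylase UPP1 was higher, at 10.69 to 13.31 in lines (median 12.48), against 5.21 to 11.05 in tissues (median 9.89), a difference of 3.18 (SE 0.46, adjusted p = 3.96e-06). In 35 ribosome assembly genes UBTF, a factor of ribosomal RNA transcription, was called lower. UBTF was dim in all lines after averaging, but line 22 alone stood at 5.36. Its tissues ran from 4.69 to 5.97, so no size is given. Ribosome assembly had 3 lower genes without tissue 2, and nucleotide synthesis 2 higher genes without tissue 3, 4 or 6. Their medians were 0.04 and -0.19 over all arrays. Within prefix 3 they were 1.07 and 0.92, against 0.10 for all genes. There 22 of 23 and 33 of 35 members were positive, against 4285 of all 7849 genes. The same medians within dog 71 were 1.20 and 1.00, and between its 2 line arrays 0.15 and 0.31. Of these genes 0 and 1 were called within prefix 3, a fit of 2 lines and 6 tissues that called 3.2% of all genes.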

How the data were processed

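Expression was measured on Affymetrix Canine_2 arrays. Per the submitters' processing notes, GCRMA made the deposited intensity values; no version is named there. Deposited intensities were linear, and log2 was taken here. Of 43035 probe sets, 175 controls were left out, 29254 had 1 symbol in the platform annotation, 439 had several (not named) and 13167 had none. Probe sets over log2 5 on at least 3 arrays were kept (18591, of which 14059 with 1 symbol), and the one with the highest mean stood for each of 7849 genes, of which 4313 had several.

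Differences were tested in R 4.3.3 with limma 3.58.1 (lmFit, then eBayes), and p-values were adjusted over all genes by Benjamini and Hochberg, with 24 primary lines, 3 metastatic lines and 6 tissues in 1 fit. The prefix 3 fit used 2 lines and 6 tissues. The number of arrays limits precision, and p-values measure the spread between dogs' samples. A fold of "at least" sets the mean of the brighter group against log2 5, where every sample of the other group was dim. Simulated data with known changes were run through the test first.

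The members and all 47 gene lists were chosen with earlier results of these data known. Named were the 15 genes in each direction with the largest difference among those called in both fits, up to 4 members of each described list or symbol family with the largest absolute difference, every called member of lists with 6 or fewer calls, 5 marker genes, and regulators of the lists. NR1D1, TFEB and GLI1 did not pass the filter. GLUL, TSC22D3, ZBTB16, FKBP5, NFKBIA, SLC1A5, SLC38A1, DDIT3, SCD, ELOVL6, ELOVL5, ACSL4, GCLM, TXN, TKT, CAT, TYROBP, TLR4, ARHGDIB, LCP1, NPC1, PPT1, PLD3, CTSD and TXNIP were named after their values were seen. No list was tested as a set. In 2 dogs a line and a tissue share the animal, per the labels, and their deviations from the group means correlated at 0.157 and -0.175.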

Additional observations from a re-analysis of the deposited data

Results flagged for a closer look

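Among the 6 tissues the lowest or highest value was compared with its nearest neighbour for 187 genes, and in 5 the gap was over 0.625 of the range, where chance gives about 5% of groups. Tissue 3 had the highest ANGPTL4 level at 10.42, with the next tissue at 8.96 and the lowest at 8.47. KDM6A stood at 10.48 in tissue 3, with the next at 8.15 and the lowest at 7.24. SUV39H1 was lowest in tissue 2 at 3.14, with the next at 4.66 and the highest at 5.52. PTGS1, the constitutive cyclooxygenase, was highest in tissue 6 at 8.83, with the next at 4.63. CHORDC1 was lowest in tissue 5 at 7.41, with the next at 8.17 and the highest at 8.52.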

How the results depend on the processing

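A covariate for title prefix left 493 calls, 178 higher and 315 lower, and in arrays with a female label 707, 235 higher and 472 lower. Differences in the covariate fit equal those within prefix 3, so it is not a separate check on them. The probe set with the largest interquartile range gave 671 higher, leaving out both tissues of dogs with a line 282 higher, and a filter at log2 7 470 lower. With dog as a random block for the paired samples 1153 genes were called, 441 higher, and all 172 called genes on the named list kept their call. Within prefix 3, leaving out 1 line gave 84 to 99 calls (21 to 30 higher, 63 to 69 lower), and leaving out 1 tissue 151 to 314 (37 to 116 higher, 108 to 198 lower), the most without tissue 6. Of the 172, 62 kept and 95 lost their call under the prefix covariate and 15 turned. Turned there were GPNMB -1.38, RGS19 0.60, ME1 -0.14, OPTN -0.48, BNIP3L -0.51, PACSIN3 -0.24, ERO1A -0.21, DNAJB9 -0.74, SF3B3 0.26, SUV39H1 1.49, HDAC8 0.24, LMNB1 1.33, BHLHE41 -0.056, LCN2 -0.63 and NPC1 -0.27. Uncalled genes that turned there were PDLIM5 -0.45, STEAP2 -0.071, NR3C1 -0.23, NFE2L2 -0.13, FKBP5 0.27 and CTSD -1.52. The probe set choice turned NSD2 to -0.027, HSF1 to -0.15 and TXNIP to 0.35, and omitting the filter turned RELN to 0.14. Without both tissues of dogs with a line NFE2L2 was at -0.056 and ATF4 at -0.00562, and without tissue 2, 3 or 4 HSF1 was at -0.05, -0.02 and -0.11. The cause was not tested. A gene at or below log2 5 throughout 1 group has only a bound there.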
